A study of Mus musculus with 3 samples.

Results

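The lineage-defining transcription factors of microglia and other myeloid cells were followed through single cells sorted from the mouse brain. The 9 members were the rows of the deposited gene table with the symbols Sall1, Mef2c, Spi1, Irf8, Runx1, Cebpa, Cebpb, Klf4 and Zbtb46. All were found among the 27998 genes of the table, and each had UMIs (unique molecular identifiers, counts of captured transcripts). The cells were sorted by FACS with an antibody to Cd11b, a surface integrin of myeloid and NK cells, from whole brain without cerebellum of 5-month-old female C57BL6J mice. The labels describe 3 groups of 1 library each. Ctrl was 1 untreated animal. D0 was a pool of 2 animals fed PLX5622 at 1200 mg/kg for 14 days. PLX5622 inhibits Csf1r, a receptor that microglia need to survive. D2 was 1 animal given the same 14 days of PLX5622 and then control diet for 2 days. Libraries were made with 10x Chromium 3′ v2 reagents, and the labels mention 4 samples in the same preparation but describe only 3.

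The 3 libraries are told apart only by the number at the end of each cell barcode, and nothing in the labels or files ties these numbers to Ctrl, D0 or D2. They are called libraries 1, 2 and 3 here, and differences between them are not differences between the study's groups. No barcode was shared between libraries. Cells of 1 library are not replicates, so no test was made and no p-value is given. Levels are UMIs of a gene per 1000000 UMIs (CPM) of the summed cells of a class, with exact Poisson 95% intervals in parentheses. These intervals, and those of the shares of cells, cover counting error only, not the spread between animals. Because 3′ libraries capture genes unequally, levels are compared between cells for 1 gene and never between genes.

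Spi1 encodes PU.1, an ETS factor that opens chromatin at enhancers throughout the myeloid lineage. Its partners include Irf8, an interferon regulatory factor needed for microglia and dendritic cells, Runx1, a core factor of blood cell emergence, and the C/EBP factors. Cebpa drives the step to granulocyte and monocyte progenitors, and Cebpb acts in monocyte survival, neutrophils and inflammatory gene expression. Sall1, a zinc finger factor, keeps microglia in their identity and is nearly restricted to them among immune cells, while Mef2c is a MADS-box factor of the microglial enhancer programme. Klf4 is a zinc finger factor of monocyte differentiation, and Zbtb46 is a BTB zinc finger factor that marks conventional dendritic cells.

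After filtering, 2137 cells formed 11 clusters, from which the 9 members had been left out as clustering genes. Clusters were named from surface and effector markers, none of them a transcription factor. The classes were microglia-like (1158 cells), border-associated-macrophage-like (BAM-like, 94 cells), monocyte-like (124 cells), non-classical-monocyte-like (83 cells), dendritic-like with Cd209a (273 cells), dendritic-like with Ccr7 (60 cells), neutrophil-like (131 cells) and NK-like (125 cells). A cluster of 89 cells led by the cell cycle genes Birc5, Ube2c and Top2a stayed unnamed and is called the cycling cluster. Library 1 held 1088 microglia-like cells, library 2 held 68 and library 3 held 2. Classes were compared within a library where at least 20 cells were present, which gave 17 combinations of class and library. Defining markers went with the names, as P2ry12 stood at 4654 CPM in microglia-like cells and Ly6c2 at 1305 CPM in monocyte-like cells. Exceptions remained. The BAM-like cluster had Pf4 at 1299 CPM and Mrc1 at 425 CPM but also P2ry12 at 2139 CPM, and passed the rule for all 12 microglia markers. Cd209a, at 1414 CPM in Cd209a-dendritic-like cells, also stood at 690.1 CPM in neutrophil-like cells, 361 CPM in the cycling cluster and 322 CPM in monocyte-like cells.

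Sall1 was high in microglia-like and BAM-like cells and close to absent elsewhere, and Cebpa, Mef2c and Runx1 had the same classes at the top with a shallower drop. Cebpb and Klf4 were highest in monocyte-like cells of both kinds. Spi1 was present in every myeloid class and at or near 0 in NK-like cells of libraries 2 and 3. Irf8 was high in microglia-like, BAM-like, Ccr7-dendritic-like and NK-like cells. Zbtb46 was sparse, and its highest level was in Ccr7-dendritic-like cells.

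**Figure D1:**
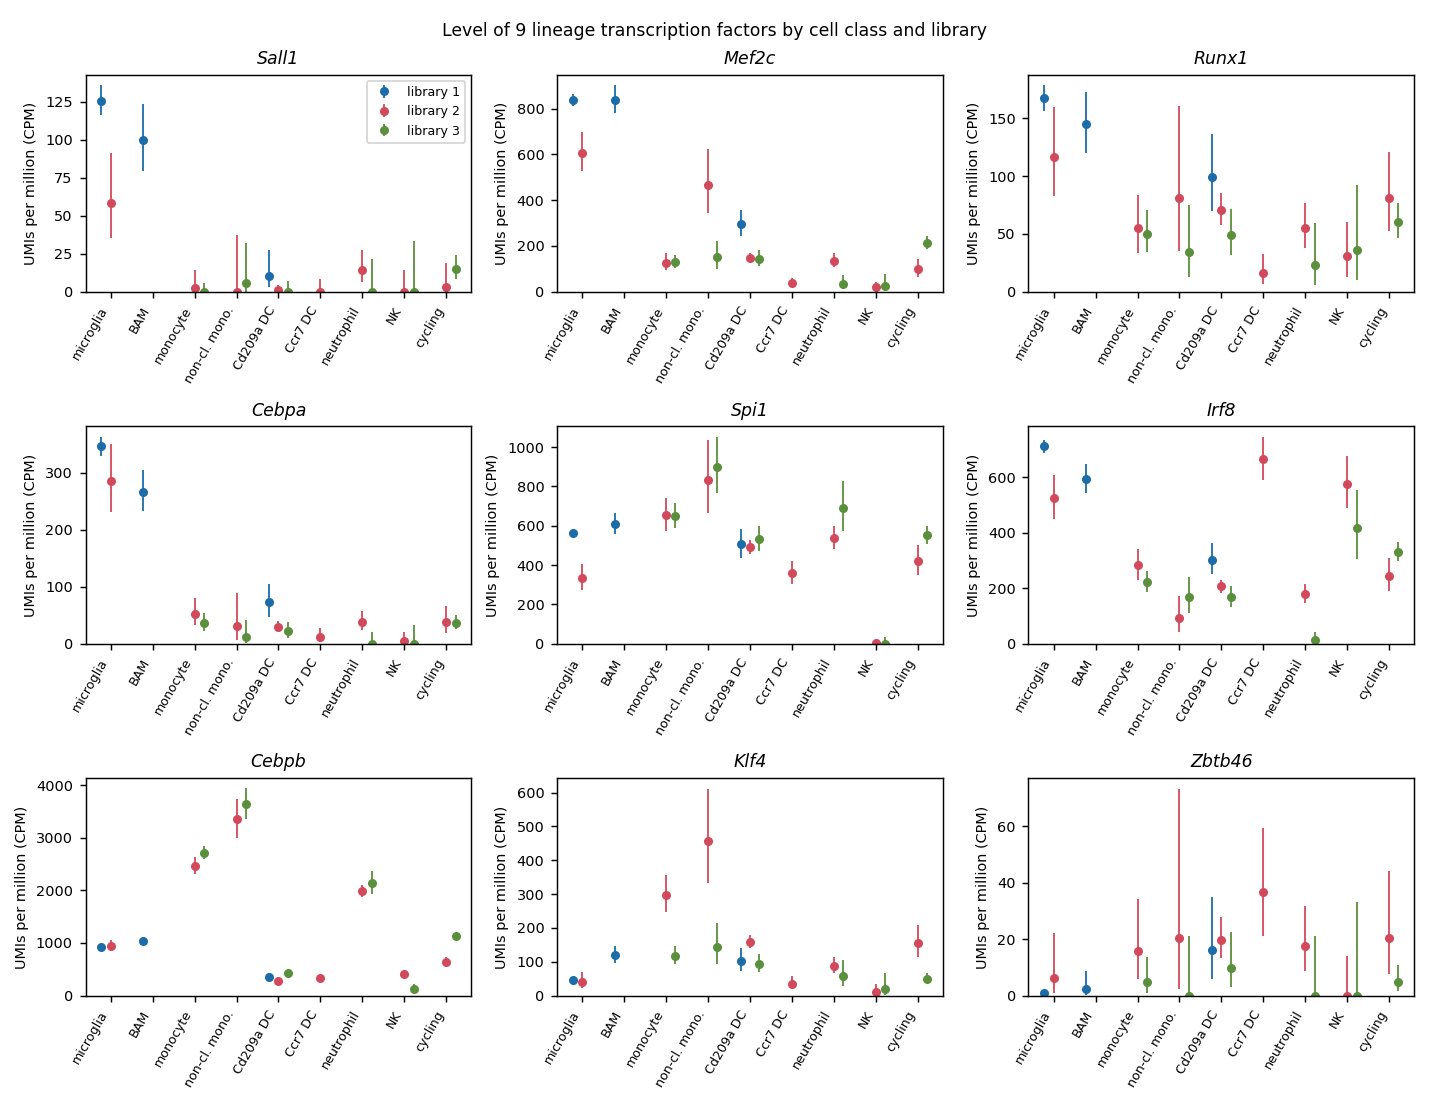
Level of each factor in UMIs per 1000000 (CPM, vertical axis, from 0) in each class of cells with at least 20 cells in a library; points are 1 library each, coloured by library, and bars are exact Poisson 95% intervals. Sall1 reaches 126 CPM in microglia-like cells of library 1 and 99.6 CPM in BAM-like cells, Cebpb is at 1986 CPM or more only in monocyte-like, non-classical-monocyte-like and neutrophil-like cells, and Spi1 is at or near 0 only in NK-like cells.

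Sall1 (ENSMUSG00000031665, GRCm38 chromosome 8, 89027235 to 89044162, minus strand) had 620 UMIs in microglia-like cells of library 1, or 126 CPM (116 to 136). In library 2 it had 19 UMIs, or 58.3 CPM (35.1 to 91.1). BAM-like cells of library 1 had 99.6 CPM (79.5 to 123), which overlaps the microglia-like interval of that library. No other class with at least 20 cells reached 15 CPM in libraries 2 and 3. Monocyte-like cells had 1 UMI in library 2 (2.61 CPM, 0.0661 to 14.5) and none in library 3, where a count of 0 allows up to 4.71 CPM. Ccr7-dendritic-like cells of library 2 had none, which allows up to 6.88 CPM, and NK-like cells of library 2 had none, which allows up to 11.5 CPM. Neutrophil-like cells of library 2 had 14.5 CPM (6.63 to 27.5) and the cycling cluster of library 3 had 14.8 CPM (8.48 to 24.1).

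These low levels of Sall1 outside microglia went with microglia transcripts in the same cells. Among neutrophil-like cells, the 102 cells with under 0.3% of their UMIs from the 12 microglia markers had Sall1 at 3 CPM (0.363 to 10.8). The 29 cells at or above 0.3% had 58.7 CPM (30.3 to 102). In the cycling cluster the corresponding values were 0 CPM in 54 cells and 25.2 CPM (14.9 to 39.9) in 35 cells. Cebpa in neutrophil-like cells was likewise 4.5 CPM (0.928 to 13.2) below the limit and 191 CPM (136 to 261) at or above it. The source of those microglia transcripts was not tested.

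Mef2c (ENSMUSG00000005583, chromosome 13, 83504034 to 83667080, plus strand) had 836 CPM (811 to 862) in microglia-like cells and 839.6 CPM (779 to 904) in BAM-like cells of library 1, a difference within counting error. Microglia-like cells of library 2 had 607.6 CPM (526 to 698). Non-classical-monocyte-like cells had 467 CPM (342 to 623) in library 2, against 150.0 CPM (98 to 219.8) in library 3. The library 2 value rested in part on other cells. A finer clustering (Leiden resolution 1.0) set apart 12 endothelial and 9 astrocyte cells, of which 9 lay among the 32 non-classical-monocyte-like cells of library 2, and the endothelial cells had Mef2c at 878 CPM (612 to 1222). Without them the level was 208 CPM (117 to 344), below that of Cd209a-dendritic-like cells of library 1 at 295 CPM (242 to 355) though with overlapping intervals. Monocyte-like cells had 128 CPM (94.6 to 169) in library 2, against 129 CPM (102 to 159.8) in library 3, and NK-like cells of library 2 had 19.1 CPM (6.21 to 44.6).

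Cebpa (ENSMUSG00000034957, chromosome 7, 35119293 to 35121928, plus strand) had 346 CPM (330.0 to 363) in microglia-like cells of library 1, against 285 CPM (230.4 to 349.6) in those of library 2. BAM-like cells of library 1 had 267 CPM (233 to 304), below the microglia-like cells of the same library. Every other class in libraries 2 and 3 was at or under 52.2 CPM, the level of monocyte-like cells in library 2 (31.9 to 80.6). Cebpa was thus several times lower in monocyte-like cells, where Cebpb was high, than in microglia-like cells. Runx1 (ENSMUSG00000022952, chromosome 16, 92601466 to 92826149, minus strand) had 167 CPM (156 to 179) and 117 CPM (82.5 to 160.1) in microglia-like cells of libraries 1 and 2 and 145 CPM (120.1 to 173) in BAM-like cells. Its next levels were 99.1 CPM (69.8 to 137) in Cd209a-dendritic-like cells of library 1 and 81.4 CPM (52.2 to 121) in the cycling cluster of library 2. Non-classical-monocyte-like cells of library 2 had 81.3 CPM, and 111 CPM (48 to 219) without their 9 endothelial cells, from 8 UMIs. Runx1 was lowest in Ccr7-dendritic-like cells, at 16.1 CPM (6.45 to 33.1), whose interval overlaps that of NK-like cells at 30.6 CPM (13.2 to 60.3).

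The share of cells with at least 1 UMI was taken after each cell had been thinned to 2000 UMIs, with shallower cells left out. Sall1 was seen in 236 of 1020 microglia-like cells of library 1 (23.1%, 20.6 to 25.8) and 7 of 62 in library 2 (11.3%, 4.66 to 21.9). It was seen in 6 of 82 BAM-like cells (7.32%, 2.73 to 15.2), in 0 of 58 monocyte-like cells of library 2 and in 0 of 67 NK-like cells of library 2. The thinned share of Sall1 in BAM-like cells was thus below that of microglia-like cells, although their CPM intervals overlapped. Before thinning the order was the other way. A Sall1 UMI was then in 38.7% of microglia-like and 42.7% of BAM-like cells of library 1, at median depths of 3394 and 8651 UMIs. The thinned shares come from a single random draw, and with another draw 13 of 153 shares moved beyond their interval. Mef2c was seen in 79.5% (76.9 to 81.9) of microglia-like cells in library 1, in 19% (9.87 to 31.4) of monocyte-like cells and 1.49% (0.0378 to 8.04) of NK-like cells in library 2. Cebpa was seen in 43.1% (40.1 to 46.2), 10.3% (3.89 to 21.2) and 0 of these cells.

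Promoter windows of 300 bases, 250 before and 50 after an annotated start, were searched for the motifs of the members themselves (RefSeq, GRCm38.p6). There were 14 windows for 8 of the 9 members, and none was matched for Spi1. The KLF motif CCACCC was found on either strand in 8 of the 14 windows, from Sall1, Mef2c, Cebpa, Cebpb and Zbtb46, against 31.5% of all 32851 windows. The RUNX motif TGTGGT was found in 1 window, of Runx1 itself, against 16.8% of all windows. The letters searched for PU.1 (GAGGAAGT) and C/EBP (TTGCNNAA), and the PU.1-IRF composite, IRF and MEF2 motifs, were in none of the 14 windows, against 3.2%, 10.8%, 2.72%, 3.44% and 3.69% of all windows. A match is a description of the letters and shows no binding. The stretches around the KLF motif of Sall1 and Cebpa, which were high together in microglia-like cells, and of Cebpb, which was highest elsewhere, are shown 5′ to 3′ on the strand of the gene, with the motif or its reverse complement in capitals. They lie at chr8:89044193-89044238 (minus strand, Sall1), chr7:35119043-35119076 (plus strand, Cebpa) and chr2:167688857-167688902 (plus strand, Cebpb).
Sall1: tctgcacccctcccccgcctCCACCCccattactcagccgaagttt
Cebpa: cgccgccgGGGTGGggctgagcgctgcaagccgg
Cebpb: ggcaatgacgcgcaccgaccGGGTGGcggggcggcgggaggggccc

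Spi1 (ENSMUSG00000002111, chromosome 2, 91082390 to 91115756, plus strand) was found in all myeloid classes. Its pooled level ran from 367 CPM (315 to 426) in Ccr7-dendritic-like cells to 891 CPM (789.6 to 1002) in non-classical-monocyte-like cells, the highest of the order. In library 2 the latter class had 833 CPM, and 1139 CPM (906 to 1413) without its 9 endothelial cells. Monocyte-like cells had 653 CPM (574 to 739) in library 2, against 651 CPM (590.2 to 717) in library 3, and neutrophil-like cells had 536 CPM (480.2 to 597) and 692 CPM (574 to 828). Microglia-like cells had 563 CPM (543 to 585) in library 1, against 335 CPM (275 to 404) in library 2, the lowest myeloid value, though it overlapped that of Ccr7-dendritic-like cells of library 2 at 358 CPM (304 to 418). NK-like cells, which do not use PU.1 as a lineage factor, had 1 Spi1 UMI in library 2 (3.82 CPM, 0.0968 to 21.3) and none in library 3, which allows up to 27.1 CPM. After thinning, Spi1 was in 67.1% (64.1 to 69.9) of microglia-like cells of library 1, in 72.4% (59.1 to 83.3) of monocyte-like cells and in 0 of 67 NK-like cells of library 2. These NK-like cells had a median of 3092 UMIs. The 13 NK-like cells of library 1 had 6 Spi1 UMIs, or 126 CPM (46.2 to 274).

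Irf8 (ENSMUSG00000041515, chromosome 8, 120736358 to 120756694, plus strand) had 712 CPM (689 to 736) in microglia-like cells and 593 CPM (542 to 647) in BAM-like cells of library 1. In library 2 the highest level was that of Ccr7-dendritic-like cells, 665 CPM (591 to 746), with NK-like cells at 577 CPM (489 to 677) and microglia-like cells at 525 CPM (449 to 609.6). Neighbours in this order overlap in their intervals. Cd209a-dendritic-like cells of the same library had 206 CPM (184 to 230.2) and monocyte-like cells 282 CPM (231 to 340.4). The level in neutrophil-like cells was 179 CPM (147 to 215) in library 2, against 11.5 CPM (1.4 to 41.7) in library 3, where only 2 UMIs were found in 28 cells.

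The finer clustering divided Irf8 further within 2 classes. NK-like cells separated into 43 cells led by Gzma, Cma1 and Klra4 with Irf8 at 1346 CPM (1146 to 1570.3), and 82 cells led by Gzmc, Xcl1 and Gzmb with 213 CPM (164 to 272). Gzma, Gzmb and Gzmc encode granzymes, and the Klra genes encode Ly49 receptors of mature NK cells. Klra genes were among the leading genes of both groups, with Klra9 in the 82 cells. Of the 131 neutrophil-like cells, 63 formed a cluster led by the granule genes Ngp, Camp and Ltf, with Irf8 at 6.94 CPM (0.841 to 25.1). The other 68 formed, with 4 cells of other classes, a cluster of 72 led by Ifitm1, G0s2 and Cxcr2, with Irf8 at 262 CPM (223 to 304). Microglia markers took 0.042% of the UMIs of the first cluster and 0.649% of the second, which also had Sall1 at 32.9 CPM (20.4 to 50.3). The markers of Cd209a-dendritic cells summed to 298 CPM in the first and 2819 CPM in the second, and Cd209a itself was 59 and 915 CPM. The part of the microglia and dendritic transcripts in the Irf8 of the second cluster was not tested.

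Cebpb (ENSMUSG00000056501, chromosome 2, 167688915 to 167690418, plus strand) had its highest levels in non-classical-monocyte-like cells, 3352 CPM (3000.5 to 3734) in library 2, against 3641 CPM (3362 to 3936) in library 3. Without the 9 endothelial cells the library 2 level was 4568 CPM (4088 to 5090), above library 3 without overlap. Monocyte-like cells followed with 2469.8 CPM (2315 to 2632) and 2712 CPM (2586 to 2843), and neutrophil-like cells with 1986 CPM (1876 to 2099.6) and 2146 CPM (1933 to 2375). As CPM, these 3 classes did not overlap one another within library 2 or library 3. Microglia-like cells had 917 CPM (890.3 to 944) in library 1, against 942 CPM (839.7 to 1054) in library 2, and BAM-like cells of library 1 had 1046 CPM (978 to 1117). Both dendritic-like classes and NK-like cells were lower, with 272 to 432 CPM in Cd209a-dendritic-like cells, 339 CPM (287 to 399) in Ccr7-dendritic-like cells and 401 CPM (328 to 486) in NK-like cells of library 2. Neutrophil markers alone made up 128516 CPM of neutrophil-like cells in library 2 and 298177 CPM in library 3, which lowers the CPM of every other gene in those cells. In library 3 the lower CPM of neutrophil-like than of monocyte-like cells thus cannot be read as less Cebpb among their other transcripts.

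Klf4 (ENSMUSG00000003032, chromosome 4, 55527143 to 55532466, minus strand) had 457 CPM (333 to 612) in non-classical-monocyte-like cells and 298 CPM (246 to 358) in monocyte-like cells of library 2. In library 3 the same classes had 144 CPM (93.3 to 213) and 118 CPM (92.6 to 148). Microglia-like cells were low, with 44.7 CPM (38.9 to 51) in library 1, against 39.9 CPM (21.2 to 68.2) in library 2, and BAM-like cells of library 1 had 119.8 CPM (97.6 to 146). The microglia-like value of library 2 was 16.8 CPM (5.5 to 39.2) without 5 astrocyte cells. In endothelial cells themselves Klf4 stood at 502 CPM (306 to 775), and non-classical-monocyte-like cells of library 2 had 389 CPM (258 to 562) once these were left out. After thinning, Klf4 was in 41.4% (28.6 to 55.1) of monocyte-like cells of library 2, 19% (9.87 to 31.4) of those of library 3 and 6.57% (5.13 to 8.27) of microglia-like cells of library 1.

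Zbtb46 (ENSMUSG00000027583, chromosome 2, 181387762 to 181459426, minus strand) had 100 UMIs in all cells used. Of these, 17 came from Ccr7-dendritic-like cells and 41 from Cd209a-dendritic-like cells, so that the dendritic-like classes held 58 of 100. In library 2 it was highest in Ccr7-dendritic-like cells, at 36.7 CPM (21 to 59.6). The next levels were 20.4 CPM (7.47 to 44.3) in the cycling cluster, 20.3 CPM (2.46 to 73.4) in non-classical-monocyte-like cells and 19.6 CPM (13.2 to 28) in Cd209a-dendritic-like cells. Neutrophil-like cells had 17.7 CPM (8.84 to 31.7) and monocyte-like cells 15.7 CPM (5.75 to 34.1), and all of these intervals overlapped. Microglia-like cells of library 1 had 4 UMIs among 4926882, or 0.812 CPM (0.221 to 2.08). NK-like cells had none in any library, which allows up to 7.14 CPM over all of them. After thinning, 6 of 55 Ccr7-dendritic-like cells of library 2 had a Zbtb46 UMI (10.9%, 4.11 to 22.2), against 8 of 177 Cd209a-dendritic-like cells (4.52%, 1.97 to 8.71). At this depth the dendritic-like classes could not be told apart by Zbtb46 from each other or from these other classes of library 2, but both lay above microglia-like cells of library 1.

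Microglia-like cells were then set against 6 other classes inside library 2, the only library with at least 20 cells of each. A gene counted as called when its CPM differed at least 2-fold, among genes with at least 50 UMIs in both sums together. Against monocyte-like cells, 7 members passed that minimum and 5 were called, beside 36.5% of 1784 genes. Mef2c, Cebpa and Runx1 were higher in microglia-like cells, by log2 ratios of 2.25 (1.79 to 2.73), 2.45 (1.74 to 3.23) and 1.09 (0.28 to 1.93). Cebpb and Klf4 were lower, at -1.39 (-1.58 to -1.20) and -2.90 (-3.85 to -2.07). Spi1 at -0.96 (-1.30 to -0.63) and Irf8 at 0.90 (0.54 to 1.26) stayed inside 2-fold, and Sall1 and Zbtb46 had fewer than 50 UMIs. The calls of Mef2c, Cebpa and Klf4 held in 10 of 10 alternative settings. Cebpb came inside 2-fold in 4 of them, at -0.79 with cells named one by one, -0.96 with doublet calls kept, -0.94 with at least 1000 genes per cell and -0.92 with at most 5% mitochondrial counts. Runx1 came inside it in 4, at 0.56 to 0.72, and Irf8 passed it in 7, at 1.02 to 1.39. The median log2 ratio was 0.90 over the 7 members, -0.20 over all genes tested and -0.10 over 26 other lineage factors.

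Against neutrophil-like cells, 6 of 7 members were called, beside 37.3% of 2044 genes, with the same 3 factors and Irf8 higher in microglia-like cells and Cebpb and Klf4 lower. Of these, Runx1 was called in only 4 of the 10 alternatives, Cebpb in 6 and Klf4 in 7. With cells named one by one Klf4 was level, at 0.07 (91.9 against 87.7 CPM). Against non-classical-monocyte-like cells 5 of 6 were called, beside 36.9% of 1110 genes. Here Spi1 was among those lower in microglia-like cells, at -1.32 (-1.74 to -0.88), and Mef2c was not called, at 0.38 (-0.09 to 0.87). Without the endothelial and astrocyte cells Mef2c was past 2-fold, at 1.68 (666 against 208 CPM), and Klf4 had too few UMIs to be counted. Mef2c was also past it, at 2.00, at resolution 1.0 and, at 1.87, with cells named one by one. Against Cd209a-dendritic-like cells 5 of 7 were called, beside 32.9% of 3511 genes, and Cebpb had the opposite side from the monocyte comparison, higher in microglia-like cells by 1.79 (1.57 to 2.01). Against Ccr7-dendritic-like cells 3 of 5 were called, beside 44.4% of 1760 genes, and these were Cebpa at 4.64 (3.36 to 6.29), Mef2c at 3.96 (3.25 to 4.77) and Cebpb at 1.47 (1.19 to 1.77). Against NK-like cells 4 of 5 were called, beside 44.8% of 1550 genes, with Irf8 the exception at -0.14 (-0.46 to 0.19). The member medians against these 5 classes were 1.09, -0.47, 1.35, 1.47 and 4.99, beside medians over all genes tested of 0.10, -0.10, -0.03, -0.08 and -0.32. These comparisons share the microglia-like cells, and their counts are not independent of one another.

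**Figure D2:**
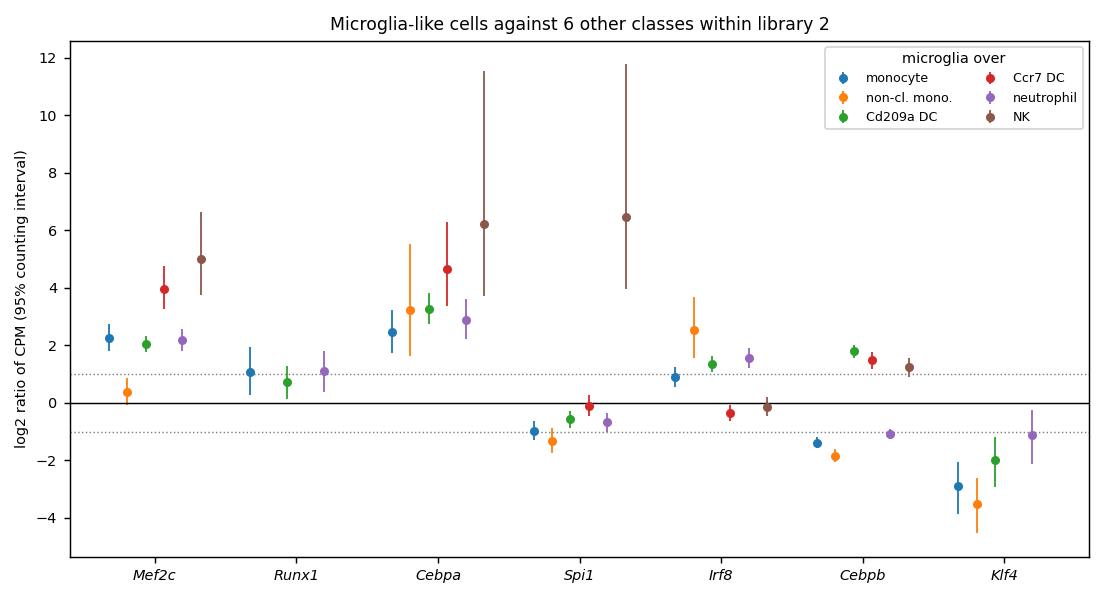
Log2 ratio of CPM (vertical axis) of microglia-like cells over each of 6 other classes of library 2 for 7 factors, with 95% counting intervals; dotted lines mark 2-fold, and pairs with fewer than 50 UMIs, which include all pairs of Sall1 and Zbtb46, are left out. Cebpa lies above 2-fold against all 6 classes, and Cebpb lies at -1.39 against monocyte-like cells and 1.79 against Cd209a-dendritic-like cells.

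Microglia-like cells were present in numbers in libraries 1 and 2. Of 8 members with enough UMIs, 1 was past 2-fold between them, beside 20.5% of 7313 genes. That member was Sall1, lower in library 2 by a log2 ratio of -1.11 (-1.85 to -0.45). Spi1 at -0.75 (-1.04 to -0.48), Runx1 at -0.52 (-1.03 to -0.05), Mef2c at -0.46 (-0.67 to -0.25) and Irf8 at -0.44 (-0.67 to -0.22) were lower in library 2 without reaching 2-fold, while Cebpb was level at 0.04 (-0.13 to 0.21). The median was -0.45 over the 8 members and -0.29 over all genes tested, so most members lay near the general offset between these libraries. The Sall1 call was lost in 5 of 10 alternatives. At resolution 1.0, where 24 cells of library 2 were named microglia, Sall1 had 77.7 CPM against 127 CPM. It had 74.4 against 126 CPM with doublet calls kept, 71.1 against 123 CPM with at least 1000 genes per cell, and 63.9 against 126 CPM both with at most 5% mitochondrial counts and without endothelial and astrocyte cells. In these last 4 settings Klf4 was the 1 member past 2-fold instead, lower in library 2 at -1.39 to -1.56. Microglia-like cells of library 2 also had less of the 12 microglia markers, 21178 against 41680 CPM in sum, and more oligodendrocyte markers, 638 against 148 CPM, and astrocyte markers, 611 against 198 CPM. The part of these in the Sall1 difference was not tested, except that Sall1 was 63.9 CPM (38.5 to 99.8) without the 5 astrocyte cells.

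The 3 microglia-like clusters of library 1 differed in Cebpb and Klf4, while their Sall1 intervals overlapped. Cluster 0 (500 cells of library 1) was led by P2ry13 and P2ry12, cluster 1 (420 cells) by Hes1 and Hk2, and cluster 2 (168 cells) by the cytokine and early response genes Il1a, Egr1 and Tnf. Cebpb had 517 CPM (483 to 553), 914 CPM (874 to 955) and 1476 CPM (1408 to 1548) in clusters 0, 1 and 2. Klf4 had 33.4 CPM (25.1 to 43.6), 37.7 CPM (30 to 46.9) and 73 CPM (58.3 to 90.3). Thus both were highest in cluster 2, and only Cebpb stepped up at each cluster beyond its intervals. Over the same clusters the sum of 20 early response, heat shock and cytokine genes was 7088, 17009 and 33179 CPM, and the part of these genes in the Cebpb difference was not tested.

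Sall1 was level over these clusters at 121 CPM (104 to 139), 130.4 CPM (116 to 147) and 125 CPM (105 to 147), as was Irf8 at 707, 711 and 721 CPM. Spi1 went the other way from Cebpb, with 615 CPM (577 to 654), 567 CPM (535 to 599) and 486 CPM (447 to 528), and the intervals of clusters 0 and 1 overlapped. Mef2c was 872 CPM (827 to 919), 854 CPM (815 to 893) and 754 CPM (705 to 806), lower in cluster 2 beyond its intervals. Cebpa was lowest in cluster 2, at 295 CPM (265 to 328). This overlapped 349 CPM (321 to 379) in cluster 0 but not 372 CPM (346 to 398) in cluster 1. In library 2, clusters 0 and 2 held 36 and 27 cells, and Cebpb had 385 CPM (282 to 513) and 1313 CPM (1154 to 1487) there. Sall1 in library 2 was 100.3 CPM (51.8 to 175) in cluster 0 and 31.9 CPM (11.7 to 69.4) in cluster 2. The cluster 0 value overlaps that of library 1, and the cluster 2 value, from 6 UMIs, does not. Cluster 2 of library 2 carried the oligodendrocyte and astrocyte markers, at 1053 and 946 CPM, and held the 5 astrocyte cells.

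**Figure D3:**
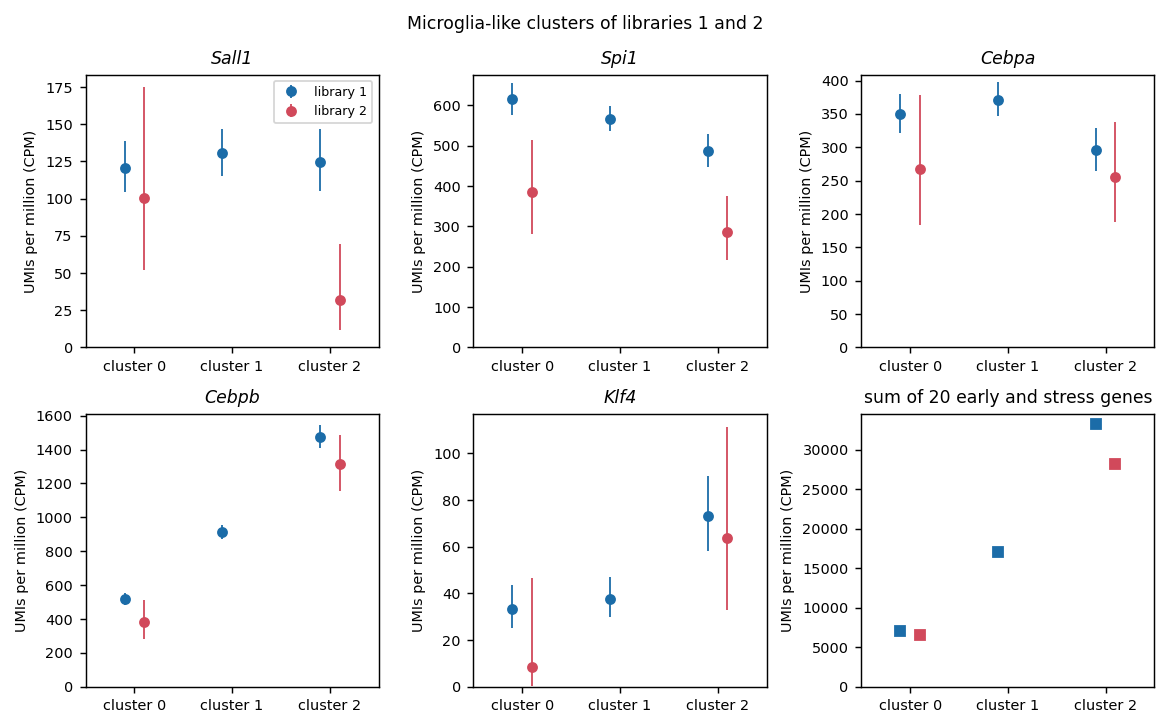
Levels in UMIs per 1000000 (CPM, vertical axes from 0) of 5 factors, with exact Poisson 95% intervals, and of the sum of 20 early response and stress genes (squares, no interval) in the 3 microglia-like clusters of libraries 1 and 2; the 5 cells of library 2 in cluster 1 are not drawn. Cebpb increases from 517 to 1476 CPM from cluster 0 to cluster 2 in library 1 beside the stress genes, while Sall1 stays between 121 and 130.4 CPM.

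Border-associated macrophages sit in the meninges and around vessels, and 82 of the 94 BAM-like cells lay in library 1. Of 8 members with enough UMIs, 1 was past 2-fold between microglia-like and BAM-like cells of library 1, beside 7.09% of 7606 genes. That member was Klf4, lower in microglia-like cells at -1.42 (-1.77 to -1.07). Cebpa at 0.38 (0.17 to 0.58), Sall1 at 0.34 (0.01 to 0.68) and Irf8 at 0.26 (0.13 to 0.40) were slightly higher in microglia-like cells, and Cebpb at -0.19 (-0.29 to -0.08) slightly lower. Mef2c at -0.01 (-0.12 to 0.11), Spi1 at -0.11 (-0.25 to 0.03) and Runx1 at 0.21 (-0.07 to 0.50) did not differ beyond counting error. The member median was 0.10 and that of all genes tested 0.03.

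Sall1 in BAM-like cells was compared between cells with more and fewer microglia transcripts, and 84 of its 87 UMIs lay in the cells with the most. Over all libraries, 61 of the 94 cells had at least 1% of their UMIs from microglia markers and a median of 10213 UMIs per cell, and held those 84 UMIs, at 113 CPM (90.1 to 139.9). The 19 cells between 0.3% and 1%, at a median of 4673 UMIs, had no Sall1 UMI, which allows up to 32.5 CPM. Those 19 cells kept Mef2c at 638 CPM (486 to 823), Cebpa at 195 CPM (115 to 308), Irf8 at 476 CPM (346 to 639) and Klf4 at 162 CPM (90.8 to 268), and their BAM markers summed to 4620 CPM, against 3767 CPM in the 61. The remaining 14 cells, under 0.3%, had markers of non-myeloid brain cells at 2499 CPM and Spi1 at 98.4 CPM (47.2 to 181). Their Sall1 was 29.5 CPM (6.09 to 86.3), from 3 UMIs, all in the 9 cells of library 2. In all, 7 cells lay near these limits, which were set after the data had been seen. Whether the 61 cells were doublets with microglia was not tested. The caller used marked 7 of 2144 cells as doublets, 0.326%, and whether doublets had been removed before deposit is not given in the sources used here.

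**Figure D4:**
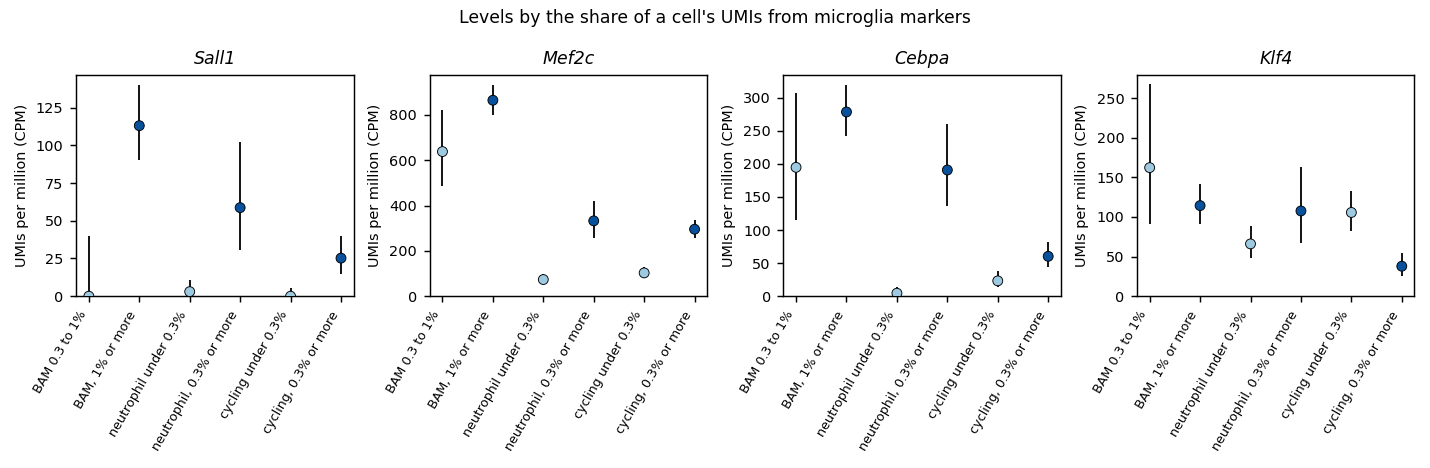
Levels in UMIs per 1000000 (CPM, vertical axes from 0) of 4 factors in BAM-like, neutrophil-like and cycling cells of all libraries, divided by the share of a cell's UMIs from 12 microglia markers (pale points, lower share; dark points, higher share), with exact Poisson 95% intervals. Sall1 is 0 in the 19 BAM-like cells between 0.3% and 1% and 113 CPM in the 61 cells at 1% or more, while Klf4 overlaps between these at 162 and 114 CPM.

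Monocyte-like cells allowed a comparison of libraries 2 and 3, with 58 cells in each. Of 6 members with enough UMIs, 1 was past 2-fold, beside 6.66% of 2344 genes. This was again Klf4, lower in library 3 at -1.34 (-1.78 to -0.91), a call that held in 9 of 10 alternatives and was -0.98 with at most 5% mitochondrial counts. It was also lower in library 3 in non-classical-monocyte-like cells (144 against 457 CPM), Cd209a-dendritic-like cells (93.4 against 159 CPM) and the cycling cluster (50.1 against 156 CPM). Klf4 intervals did not overlap in any of these 4 classes. In neutrophil-like cells they overlapped, at 57.7 CPM (27.7 to 106) against 87 CPM (65.3 to 113). Early response and stress genes were lower in library 3 than in library 2 in the same classes, at 9603 against 15268 CPM in monocyte-like cells and 5423 against 13583 CPM in non-classical-monocyte-like cells, and their part in the Klf4 difference was not tested.

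In the same monocyte-like cells Spi1 at 0.00 (-0.23 to 0.23) and Mef2c at 0.01 (-0.52 to 0.55) were level between libraries, and Cebpb was at 0.14 (0.02 to 0.25). Irf8 was -0.34 (-0.71 to 0.04) and Runx1 was -0.13 (-0.97 to 0.74). The median over the 6 members was -0.06, beside 0.11 over all genes tested. Cebpb in the cycling cluster was 1125 CPM (1063 to 1190.5) in library 3, against 631 CPM (543 to 728) in library 2, and Mef2c was 215 CPM (188 to 245) and 98.4 CPM (65.9 to 141). That cluster held more microglia-marker UMIs in library 3, 5477 against 956 CPM.

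Levels over all cells of a library are given for Sall1, Cebpa, Cebpb and Spi1, and the part of its mix of classes in them was not tested. Sall1 was 112, 8.78 and 6.1 CPM in libraries 1, 2 and 3, and Cebpa was 312, 50.7 and 28 CPM. Cebpb was 958, 923 and 1506 CPM and Spi1 563, 454 and 568 CPM. Such totals alone do not tell fewer cells of a type from less RNA per cell. Microglia-like cells were 86.3%, 11.5% and 0.704% of the cells of libraries 1, 2 and 3, and levels within classes are given above.

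Across the 17 combinations of class and library, the members were compared by Pearson's r of log2(CPM + 10). Cebpa, Mef2c, Runx1 and Sall1 correlated at 0.77 to 0.90 with one another. Each of these was highest in the microglia-like and BAM-like combinations, so the r values carry that contrast and do not describe the other classes alone. Spi1 correlated with Klf4 at 0.70 and with Cebpb at 0.64, and Cebpb with Irf8 at -0.46. Spi1 was at 3.82 and 0 CPM in the NK-like combinations and at 335 CPM or more in all others. Its r values, here and below, rest largely on that gap and do not describe the myeloid classes alone. The C/EBP factors had an r of only 0.16. These are descriptions, since combinations of 1 library share its free RNA and depth and those of 1 class share its cells.

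Among 9686 genes, the 3 with the pattern most like each member were named by the same measure. For Sall1 they were Gm2237 (0.98), Liph (0.97) and Adora3 (0.97), of which Adora3 encodes an adenosine receptor of microglia. For Mef2c they included Itgb5 (0.96) and Mtdh (0.96), and they were for Runx1 Ivns1abp, Mtdh and Frmd4b (0.91 to 0.93) and for Cebpa Adap2os, Hexa and Frmd4b (0.95 to 0.96). For Spi1 they included Skap2 (0.95) and Prkcd (0.94), and for Cebpb they were Atp6v1e1, Dok3 and Sqrdl (0.92 to 0.94). For Klf4 they were Ms4a6c, Themis2 and Tstd3 (0.84 to 0.85). Irf8 was nearest to Dcaf8, Prpf38b and Ppp3cb (0.89 to 0.94), and Zbtb46 to the NF-kB subunit gene Rel (0.91), Grasp (0.90) and the peptidase gene Dpp4 (0.87).

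Of 80 other lineage factors listed for comparison, 79 were in the table and 1 of these, Sall4, had no UMI. With no minimum of UMIs, the highest pooled class was the non-classical-monocyte-like one for 18, microglia-like for 13, and BAM-like and Ccr7-dendritic-like for 12 each. Several of the 18 rested on few UMIs, such as 1 for Gfi1b and 5 for Bcl6. Others had more, such as 308 for Klf2 and 213 for Nr4a1. That class had the fewest UMIs, 311905, and held 12 endothelial cells, whose part in the 18 was not tested apart from Id3. For 16 of the 79 factors, with the minimum of UMIs given under the processing, the highest class had at least 2 times the level of the second. None of these 16 had microglia-like or BAM-like cells on top. This absence cannot be read as a lack of microglia factors, because these 2 classes share microglia transcripts. In library 1 the microglia markers themselves summed to 41680 CPM in microglia-like cells, against 23608 CPM in BAM-like cells, a difference under 2-fold. In Ccr7-dendritic-like cells they were Relb at 576 CPM (12.3-fold over the second class), Rel, Etv3, Batf3 and Nr4a3. NK-like cells led for Eomes and Tbx21, the T-box factors of NK cells, at 85.7 and 95.3 CPM, and for Ikzf3, Runx3 and Ets1. Monocyte-like cells led for Irf7 (430.5 CPM), neutrophil-like cells for Cebpe (87.3 CPM), a factor of granule formation, and Ets2, non-classical-monocyte-like cells for Id3, Cd209a-dendritic-like cells for Bcl11a, and the cycling cluster for Gata2. The Id3 lead rested on library 2, with 457 CPM against 75 CPM in library 3, and without endothelial and astrocyte cells it was 58.8 CPM pooled, 1.35 times the next class. Bcl11a was 1.3 and 1.18 times the next class within libraries 2 and 3, and Ets1, Ets2 and Rel were 1.35, 1.78 and 1.96 times the next within library 2. For Ets1 and Ets2 that next class was the non-classical-monocyte-like one, with 10 and 5 UMIs, which held 9 endothelial cells there. Pooled without endothelial and astrocyte cells, Ets1 and Ets2 were 3.15 and 3.12 times the next class. The runner-up for the microglia-like factors was the BAM-like cluster in such cases as Bhlhe41 (102 against 58.7 CPM) and Sall3 (55.9 against 36.3 CPM), 2 examples chosen after their values were seen. Sall1 itself had the same pair of classes on top, at 121 and 92.8 CPM pooled.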

How the data were processed

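Per the labels, cells of 3 groups were sorted and sequenced with 10x 3′ v2 chemistry. The authors deposited 1 matrix of UMI counts per gene and cell barcode. Cell Ranger 2.0.1 and mm10 are named per the submitters' processing notes, while the annotation and the rule for calling cells are not given in the sources used here. The members and lists were chosen with earlier results of these data known, and the scoring rule for naming clusters was settled after they had been seen.

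Cells with at least 500 genes and at most 10% mitochondrial counts were kept, which removed 5 of 2149. Scrublet (scanpy 1.11.5, expected rate 5%) marked 7 more, so doublets may remain. For clustering, counts were put on a scale of 10000 per cell and logged. Of the 2000 most variable genes, 1997 remained without the members, and gave 30 principal components, 15 neighbours and, with igraph 0.11.9, clusters by the Leiden method at resolution 0.5. A marker passed in a cluster with a UMI in at least 30% of cells and at least 2 times the median CPM of clusters. A name needed 3 markers, and a cluster with no marker among its 10 leading genes and under 50% of the list stayed unnamed. Of 172 markers in 18 lists, 5 were not analysed here.

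Total counts were 6410990, 4022293 and 2831118 UMIs and median depths 3662, 6188 and 8172 UMIs per cell in libraries 1, 2 and 3. CPM come from summed counts with exact Poisson intervals, and shares have exact Clopper-Pearson intervals. A count of 0 is given the limit of 3 counts. Intervals of ratios come from the exact binomial interval of how a gene's UMIs divide between the 2 sums. The text names all 9 members, the 3 genes most like each by correlation over combinations of class and library, and the other lineage factors at least 2 times higher in 1 class than in the next, with at least 20 UMIs there. Some genes that this rule picks, and 1 promoter stretch, are not reported here. Gene positions are from GENCODE vM21 (GRCm38) and promoters from RefSeq. The 2-fold calls and the Poisson intervals were tested on simulated counts, and the thinning on some of the cells. The filters, doublet calls, clustering, naming and correlations were not tested on simulated data. Alternatives to the filters, the clustering, the naming, the denominator, the thinning and the fold were tried, and 2 of them, leaving out the endothelial and astrocyte cells or the cells of other classes with microglia transcripts, were chosen after seeing the data.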

Additional observations from a re-analysis of the deposited data

How the results depend on the processing

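The main limits are 1 library per barcode number, no tie from these numbers to the study's groups, and small classes outside library 1. No paired analysis was possible because each group has 1 library and the results come from no test. In the ratios to monocyte-like cells, no called direction was reversed. With cells named one by one, the Klf4 log2 ratio to neutrophil-like cells was 0.07, against -1.12 in the main setting. That call was lost and its sign changed. The causes of the changes were not tested unless the setting itself states them. With the 50 most abundant genes left out of the denominator, levels in microglia-like cells of library 1 were higher by construction, at 177 CPM for Sall1, 1173 for Mef2c, 791 for Spi1, 999 for Irf8, 235 for Runx1, 486 for Cebpa, 1287 for Cebpb and 62.7 for Klf4. As means of per-cell CPM they were 866 for Mef2c, 368 for Cebpa and 863 for Cebpb, and with cells named one by one Klf4 was 55.4 CPM.

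Log2 ratios of microglia-like over monocyte-like cells in library 2 that moved beyond their error were as follows. With cells named one by one they were 1.78 for Mef2c, -0.58 for Spi1, -0.79 for Cebpb and -1.80 for Klf4. With means of per-cell CPM they were 2.85 for Mef2c and -2.05 for Cebpb. With at most 5% mitochondrial counts they were -0.63 for Spi1 and -0.92 for Cebpb. With doublet calls kept they were 1.26 for Irf8, -0.96 for Cebpb and -3.98 for Klf4, and with at least 1000 genes per cell -0.94 for Cebpb and -3.95 for Klf4. Irf8 was 1.39 at resolution 1.0, Cebpb -1.12 with the members kept among the variable genes, and Klf4 -4.15 without endothelial and astrocyte cells. Cebpb thus came inside 2-fold in 4 of these settings.

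A count can stay while its genes change, as between microglia-like cells of libraries 2 and 1. Counts of members past 2-fold, in the order monocyte-like, non-classical-monocyte-like, Cd209a-dendritic-like, Ccr7-dendritic-like, neutrophil-like and NK-like, were 5, 5, 5, 3, 6 and 4 in the main setting. With a fold of 4 they were 3 against monocyte-like, 3 against non-classical-monocyte-like, 2 against Cd209a-dendritic-like and 2 against neutrophil-like cells. With at least 200 UMIs, which leaves fewer genes, they were 2 against monocyte-like, 1 against non-classical-monocyte-like, 3 against neutrophil-like and 2 against NK-like cells. With cells named one by one they were 3 against monocyte-like, 5 against Ccr7-dendritic-like and 3 against neutrophil-like cells. With no minimum they were 6 against Ccr7-dendritic-like and 7 against NK-like cells, and at resolution 1.0 they were 2 against NK-like cells. The 3 comparisons with a single member called, microglia-like with BAM-like cells of library 1, microglia-like cells of library 2 with 1, and monocyte-like cells of library 3 with 2, each gave 0 at a fold of 4 and 2 with no minimum. The first gave 3 with cells named one by one, the second 0 at resolution 1.0, and the third 0 with at most 5% mitochondrial counts and 0 with at least 200 UMIs.

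Shares of cells with a UMI depended on depth, and 92 of 153 moved beyond their interval without thinning. Without library 1, the pooled microglia-like level moved for 8 of the 9 members, with 70 of the 1158 cells left, and the cause was not tested.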
